A study of Arabis alpina with 12 samples.

Results

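The genes described here are 40 genes of glucosinolate and sulphur metabolism in lateral buds of Arabis alpina, a perennial relative of Arabidopsis thaliana. They were chosen among the 3884 genes that the authors listed as changed in at least 1 of 4 comparison tables, out of 19722 genes in the table of normalized counts. A gene was taken if its annotation named glucosinolates, myrosinase, sulphate, sulphur or a related word, and the homologues of SDI1 and GGCT2;1 were added. Of the 40 genes, 19 were listed in 1 table, 16 in 2, 4 in 3 and 1 in all 4. Because listing as changed was a condition of membership, counts of changed members describe these genes and are no test of the pathway. Gene symbols are those of the A. thaliana homologues that the authors assigned.

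All plants were of the ecotype Pajares. They grew for 8 weeks in long days and were then vernalized for 12 weeks at 4 °C. Buds of the dormant zone (V2) and of the growing zone (V3) were collected when vernalization ended (0 d), or 5 days later, once the plants stood in long days again (5 d). The 4 groups, V2 0 d, V3 0 d, V2 5 d and V3 5 d, held 3 libraries each, which the labels call biological replicates. The labels do not say whether buds of several plants were pooled, and whole buds were sequenced, so fewer cells of a type and less RNA per cell cannot be told apart.

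Glucosinolates are sulphur-rich defence compounds of the cabbage family, made from tryptophan (indolic) or from chain-elongated methionine (aliphatic) and broken down by myrosinases when tissue is damaged. Sulphate taken up by transporters is activated to adenosine phosphosulphate, which is either reduced towards cysteine and glutathione or phosphorylated again into the donor that sulphotransferases use to finish the glucosinolate molecule. In A. thaliana a set of genes rises when sulphur runs short, and some of their products slow glucosinolate synthesis or recycle glutathione.

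Reads recovered from the deposited counts summed to 12252622 to 22586938 per library, the lowest in V2 0 d replicate 3. A count wrongly at 0 lowers such a sum, so it is no measure of sequencing depth. V2 0 d replicate 3 also stood apart in having 38.7% of all genes at 0, against 9.94% to 14.8% in the other libraries. Many zeros in the deposited counts were contradicted by the FPKM (fragments scaled to transcript length and library size) of the same gene and library or by its partner libraries, and 17395 such zeros were left out, 6553 of them in V2 0 d replicate 3. In the 40 genes 31 zeros were left out, in 10 genes, while 30 genes had none. Markers could be paired only among the genes listed as changed. Of 7 shoot meristem markers this left only CUC3, a boundary gene of buds, which was detected in every library. Its FPKM was 9.77 to 13.4 at 0 d, 5.53 to 7.03 in V2 5 d and 3.48 to 5.70 in V3 5 d.

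Levels are given as FPKM, which can be compared between genes. Differences are log2 fold changes of normalized counts with 1 added, each with its standard error (SE) and the limma p-value adjusted over all genes tested. The added 1 understates the change of low genes, while deposited counts of 0 beside an FPKM above 0 can overstate it, so FPKM values are given beside such genes. A gene was called at an adjusted p under 0.05. A second limma fit, on log2(FPKM + 0.5) of the 3877 listed genes with FPKM, was chosen after the data had been seen and is called the FPKM fit. It called 33.8% of those genes between zones at 0 d, 67.2% at 5 d, 54.2% over time in V2, 55.5% in V3 and 31.2% for the difference between these changes. The FPKM fit adjusted p-values over these listed genes alone, which were chosen for change. Its calls are therefore easier to reach and are no independent check. Calls without its name are those of the count fit. Levels of each library stand in replicate order.

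Most tested members rose in growing buds within 5 days of the cold. In V3, 24 of 36 tested members rose from 0 d to 5 d and 1 fell, where 13.4% of all genes tested rose and 10.9% fell. In V2, 8 of 38 rose and 7 fell, where 12.6% of all genes rose and 11.3% fell. At 5 d, 18 of 36 members were higher in V3 than in V2 and 3 were lower, beside 16.2% and 19.9% of all genes. At 0 d, 1 of 37 was higher in V3 and 4 were lower, beside 1.13% and 3.25% of all genes. The change over time differed between zones in 11 of 36 members, all of them towards higher values in V3, beside 4.01% of all genes in that direction and 3.01% in the other. The median log2 change of the members was 1.46 over time in V3 and 0.32 in V2, and all genes had medians of -0.02 and 0.00. At 5 d the median V3 to V2 difference was 0.97 and at 0 d -0.46, where all genes had -0.04 and -0.03. The comparisons share groups and all of them chose the members, so nothing further is read from these shares.

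**Figure D1:**
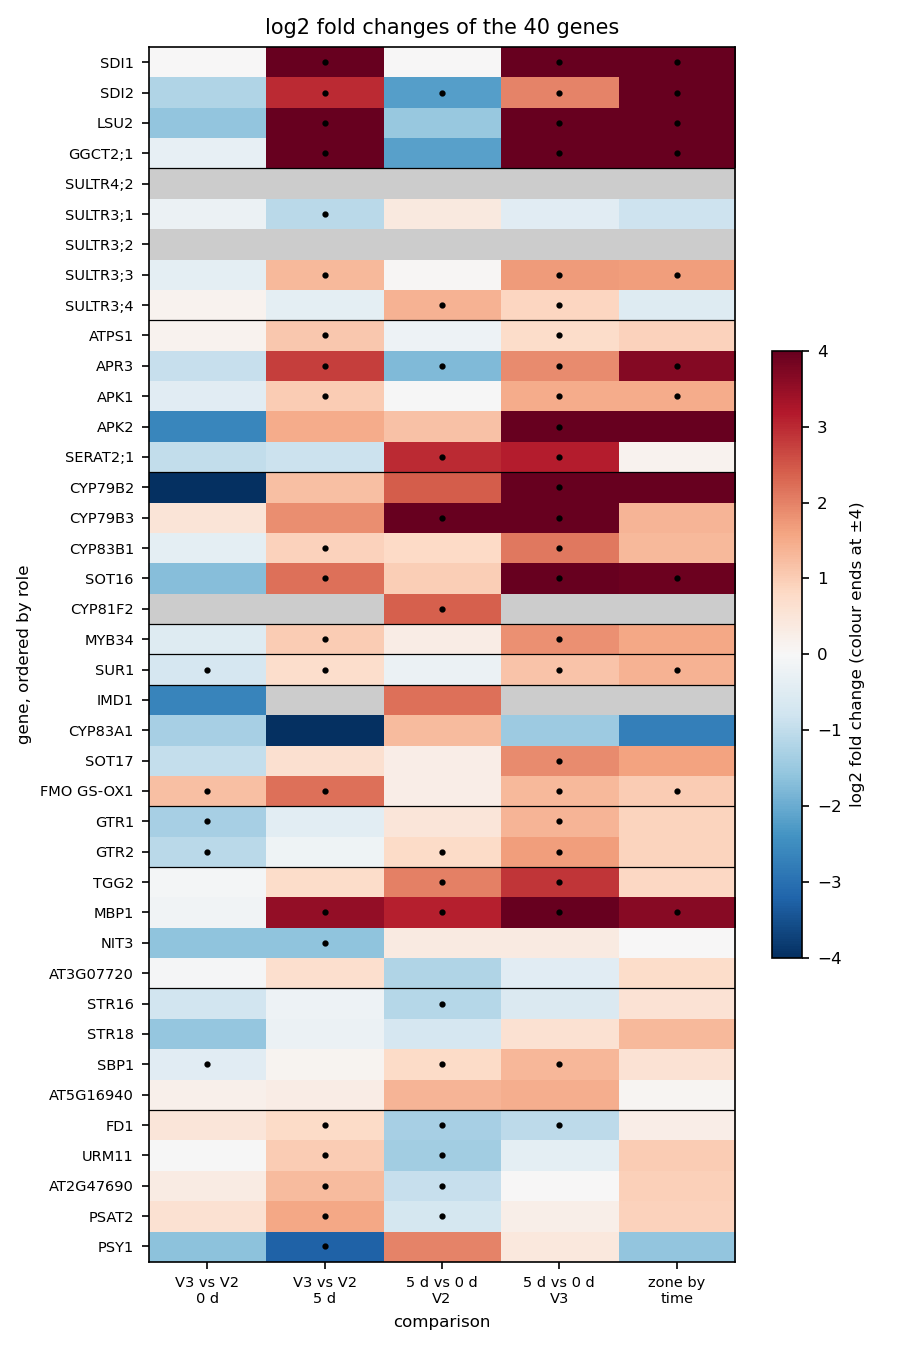
Log2 fold changes of the 40 genes (rows, ordered by role and separated by lines) in 5 comparisons (columns). Red is higher, blue is lower, grey was not tested and a dot marks an adjusted p under 0.05; the colour ends at 4 in either direction. The column for 5 d versus 0 d in V3 holds 24 dots on red and 1 on blue.

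The genes that A. thaliana raises when sulphur is short were highest in growing buds at 5 d. SDI1 (Aa_G138960), whose product restrains aliphatic glucosinolate synthesis in A. thaliana, had FPKM of 134, 67.0 and 150 in V3 5 d. In V2 5 d its FPKM was 0, 0 and 0.0823, in V3 0 d 0.489, 0 and 0, and in V2 0 d 0.670, 0.459 and 1.31. V3 5 d lay above every library of the other 3 groups, which reached at most 1.31. Its normalized counts were 2616, 1410 and 2889 in V3 5 d and 0 in every other usable library. SDI1 was called higher in V3 5 d than in V2 5 d (adjusted p = 6.5e-09) and than in V3 0 d (adjusted p = 5.1e-09). No fold is given from counts of 0 that stand beside an FPKM above 0. Groups at 0 add no spread to the pooled estimate, so these p-values on counts are smaller than the spread between libraries would warrant. The FPKM fit gave log2 differences of 7.72 (SE 0.37, adjusted p = 1.8e-06) and 7.47 (SE 0.37, adjusted p = 6.9e-07). It also called a fall in V2, of -1.27 (SE 0.37, adjusted p = 0.015).

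SDI2 (Aa_G477790), a relative of SDI1, was measured well in all groups and moved in opposite directions in the zones. Its FPKM was 19.0, 18.7 and 33.2 in V2 0 d and 5.01, 5.41 and 4.29 in V2 5 d. In V3 it was 12.1, 9.26 and 14.2 at 0 d and 49.1, 30.8 and 50.8 at 5 d. The times did not overlap within a zone, although V3 5 d replicate 2 lay below V2 0 d replicate 3. SDI2 fell by 2.20 in V2 (SE 0.32, adjusted p = 0.0014) and rose by 1.97 in V3 (SE 0.32, adjusted p = 0.0021) on the log2 scale. The difference between these changes was 4.18 (SE 0.44, adjusted p = 0.00022).

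APR3 (Aa_G117440), an APS reductase that commits sulphate to reduction, had the same pattern. Its FPKM went from 20.8, 24.3 and 44.6 in V2 0 d to 9.94, 8.75 and 9.26 in V2 5 d. In V3 it went from 16.7, 11.7 and 16.1 to 67.8, 39.8 and 68.0. Again the times did not overlap within a zone, and V3 5 d replicate 2 lay below V2 0 d replicate 3. APR3 fell by 1.77 on the log2 scale in V2 (SE 0.31, adjusted p = 0.0040) and rose by 1.90 in V3 (SE 0.32, adjusted p = 0.0023), a difference of 3.67 (SE 0.43, adjusted p = 0.00055).

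LSU2 (Aa_G392350), a small protein named for its response to low sulphur, had FPKM of 118, 32.8 and 81.1 in V3 5 d. It had 2.91, 2.55 and 2.37 in V2 5 d, 0.939, 6.01 and 3.35 in V3 0 d, and 15.3, 3.53 and 10.6 in V2 0 d. All libraries of V3 5 d lay above all others, though V3 5 d replicate 2 was low for its group. LSU2 was 4.80 higher at 5 d than at 0 d in V3 (SE 0.62, adjusted p = 0.00060) and 4.75 higher in V3 than in V2 at 5 d (SE 0.62, adjusted p = 0.00052). In V2 the change was -1.52 (SE 0.61, adjusted p = 0.099).

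GGCT2;1 (Aa_G112850), a cyclotransferase that recycles glutathione, had FPKM of 31.0, 15.2 and 49.1 in V3 5 d and 0.268 to 1.38 in the other 9 libraries. At 5 d it was called higher in V3 than in V2 (adjusted p = 0.0058), where the usable counts were 0, a call that could not be tested without V2 5 d replicate 2 or 3. Mean FPKM was 41.9 times as high in V3, and the FPKM fit gave 4.63 (SE 0.41, adjusted p = 1.6e-05). Within V3 it was 6.77 higher at 5 d on counts (SE 1.51, adjusted p = 0.021) and 4.40 in the FPKM fit (SE 0.41, adjusted p = 1.4e-05). The call on counts ended without V3 5 d replicate 1 (adjusted p = 0.060) or V3 5 d replicate 3 (adjusted p = 0.063), and it could not be tested in 2 other fits that left out 1 library.

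SULTR4;2 (Aa_G40360), which releases sulphate from the vacuole, was listed at 0 counts in the 9 libraries outside V3 5 d although its FPKM there was 0.639 to 2.37, so the counts gave no test. In V3 5 d its FPKM was 18.5, 15.3 and 23.0, above every other library. The FPKM fit gave 3.78 higher in V3 than in V2 at 5 d (SE 0.27, adjusted p = 6.7e-06) and 3.29 higher over time in V3 (SE 0.27, adjusted p = 7.2e-06). In the authors' deposited table the log2 fold changes were 12.39 and 12.43.

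Over these 6 genes the summed FPKM was 418, 201 and 422 in V3 5 d, 17.3 to 20.4 in V2 5 d, 28.5 to 36 in V3 0 d and 49.7 to 92.1 in V2 0 d. V3 5 d replicate 2 was the lowest of its group for all 6. From a list of 11 A. thaliana loci of sulphur deficiency these 6 could be paired, and 5 were tested. Only genes listed as changed were open to pairing, so these counts are no test of the list. All 5 tested rose in V3, where 13.4% of all genes tested rose. All 5 were also higher in V3 than in V2 at 5 d, beside 16.2% of all genes. In V2, 2 of them, SDI2 and APR3, fell, beside 11.3% of all genes.

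**Figure D2:**
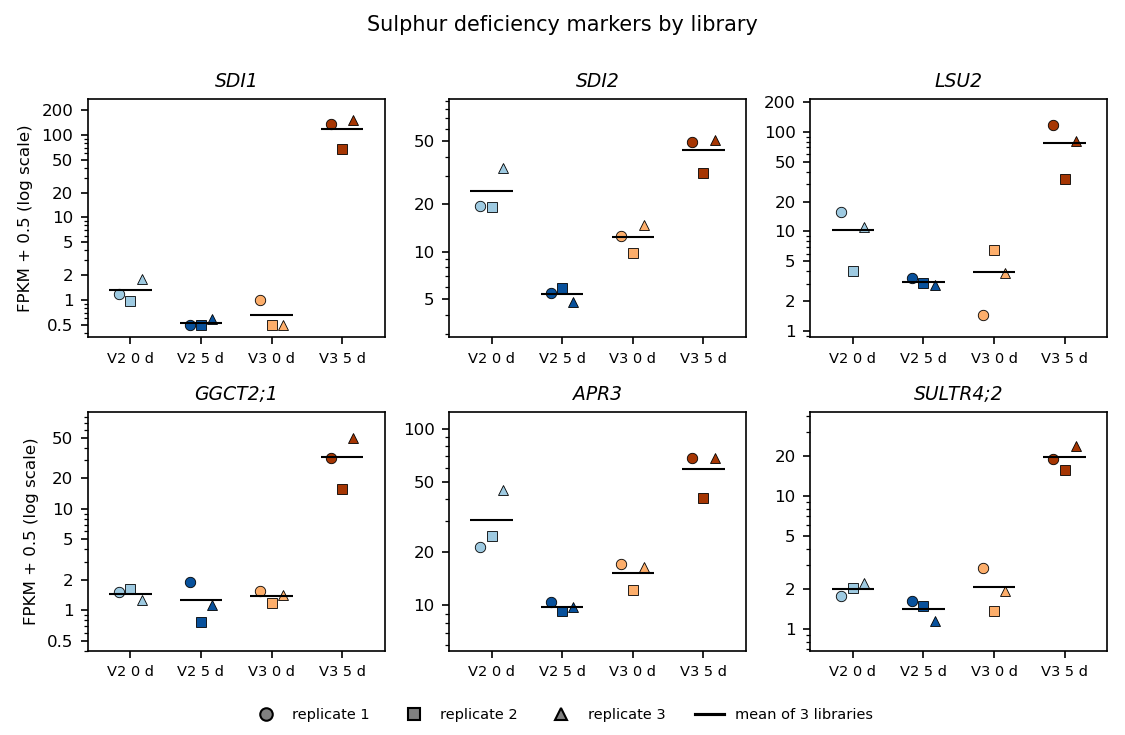
FPKM plus 0.5 on a log axis for 6 genes known from A. thaliana to rise in low sulphur, by group. Each point is a library, its shape the replicate, and the bar the mean of 3 libraries; V3 5 d has the highest mean in every panel, and SDI2 and APR3 are lower in V2 5 d than in V2 0 d.

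The other sulphate transporters did not move together. SULTR3;3 (Aa_G367260), of the group 3 family, had FPKM of 16.6, 14.5 and 17.3 in V3 5 d and 4.67 to 7.59 in the other libraries. It was 1.72 higher at 5 d in V3 (SE 0.18, adjusted p = 0.00016) and 0.04 different over time in V2 (SE 0.18, adjusted p = 0.91), and the difference of 1.68 was called (SE 0.26, adjusted p = 0.0036). SULTR3;1 (Aa_G235920), which carries sulphate into chloroplasts in A. thaliana, was the most abundant of the 5 transporters. Its FPKM was 55.1, 62.8 and 45.3 in V3 5 d and 95.6, 113 and 106 in V2 5 d, without overlap. At 5 d SULTR3;1 was lower in V3 by a log2 difference of -1.07 (SE 0.20, adjusted p = 0.0031).

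SULTR3;4 (Aa_G242040) rose in V2 from 5.09, 7.81 and 8.33 FPKM to 17.8, 14.3 and 20.3. The log2 change in V2 was 1.39 (SE 0.25, adjusted p = 0.0041). In V3 it was 0.86 (SE 0.25, adjusted p = 0.032), a call that remained in 1 of 6 fits without 1 library, with adjusted p up to 0.109. It ended without any 1 of V3 0 d replicates 1, 2 and 3 and V3 5 d replicates 2 and 3. SULTR3;2 (Aa_G188740) had no count test because of left-out zeros. Its FPKM was 1.64 to 2.77 in V2 0 d, 0.175 to 0.325 in V2 5 d, 2.70 to 4.93 in V3 0 d and 1.44 to 2.36 in V3 5 d. V2 5 d was the lowest group, below all libraries of the others. In the FPKM fit it fell by 1.89 in V2 (SE 0.24, adjusted p = 0.00023) and by 0.84 in V3 (SE 0.24, adjusted p = 0.012), and at 5 d it was 1.71 higher in V3 (SE 0.24, adjusted p = 0.00015). The changes over time differed by 1.05 (SE 0.34, adjusted p = 0.040). The authors' deposited table gave it a log2 fold change of -29.84 over time in V3, where the mean FPKM at 5 d was 0.495 of that at 0 d.

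All 5 members of sulphate activation, reduction and serine acetylation rose in V3, beside 13.4% of all genes tested. Listing as changed had chosen these members, so this count is no test. ATPS1 (Aa_G413560), the ATP sulphurylase that activates sulphate, had FPKM of 106, 115 and 170 in V3 5 d against 61.1, 66.3 and 63.5 in V2 5 d. It was 1.07 higher in V3 at 5 d (SE 0.19, adjusted p = 0.0024). Its rise of 0.73 in V3 (SE 0.19, adjusted p = 0.021) ended without V3 0 d replicate 2 or 3 or V3 5 d replicate 3 (adjusted p = 0.051 to 0.071). APK1 (Aa_G395410) and APK2 (Aa_G486320) are APS kinases, which make the sulphate donor of glucosinolate synthesis.

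APK1 had FPKM of 38.2, 38.7 and 50.1 in V3 5 d and 15.1 to 26.8 in the other libraries. It rose by 1.47 in V3 (SE 0.20, adjusted p = 0.00077) and was 1.03 higher in V3 than in V2 at 5 d (SE 0.20, adjusted p = 0.0036). The V3 group at 5 d did not overlap with any other. APK2 spread more widely, with FPKM of 22.2, 6.50 and 6.10 in V2 0 d, 23.9, 33.6 and 10.1 in V2 5 d, 1.32, 4.15 and 2.5 in V3 0 d and 49.2, 65.7 and 70.3 in V3 5 d. It rose by 5.26 in V3 (SE 0.88, adjusted p = 0.0034) over the libraries that could be used, a call that could not be tested without V3 0 d replicate 2 or 3. At 5 d its V3 to V2 difference was 1.48 on counts (SE 0.79, adjusted p = 0.18), not called. In the FPKM fit that difference was 1.58 (SE 0.56, adjusted p = 0.028), called. SERAT2;1 (Aa_G108980), a serine acetyltransferase that provides the carbon skeleton of cysteine, rose in both zones. Its log2 changes were 2.98 in V2 (SE 0.57, adjusted p = 0.0060) and 3.13 in V3 (SE 0.58, adjusted p = 0.0040), and its FPKM at 5 d was 9.02, 17.8 and 9.75 in V2 and 5.33, 8.31 and 6.84 in V3.

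Of the 5 members that make or modify indolic glucosinolates, 4 could be tested over time in V3. All 4 rose, beside 13.4% of all genes tested. The authors had listed all 4 as changed in that comparison, so this count is no test. CYP79B2 (Aa_G486300) and CYP79B3 (Aa_G407280) turn tryptophan into indole acetaldoxime. The FPKM of CYP79B2 was 48.0, 51.5 and 73.2 in V3 5 d, 39.3, 27.8 and 11.7 in V2 5 d, 0.103, 1.42 and 0.184 in V3 0 d and 8.27, 2.52 and 4.03 in V2 0 d. The order of the groups was V3 5 d, V2 5 d, V2 0 d and V3 0 d, without overlap. At 5 d the V3 to V2 difference of 1.21 on counts was not called (SE 1.38, adjusted p = 0.53). Nor was that of 1.25 in the FPKM fit (SE 0.56, adjusted p = 0.069). At 0 d the difference on counts was -5.53 (SE 1.35, adjusted p = 0.051), not called. The FPKM fit called the difference at 0 d, at -2.41 (SE 0.56, adjusted p = 0.015). On counts CYP79B2 rose by 9.16 in V3 (SE 1.38, adjusted p = 0.0014), a value that rests on counts of 0 in V3 0 d replicates 1 and 3, whose FPKM was above 0. The FPKM fit gave 5.95 (SE 0.56, adjusted p = 1.5e-05). In V2 the change was 2.42 on counts (SE 1.35, adjusted p = 0.22), not called, and 2.28 in the FPKM fit (SE 0.56, adjusted p = 0.0068), called.

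CYP79B3 had FPKM of at most 0.109 in the 6 libraries at 0 d. At 5 d it had 5.56, 4.62 and 0.895 in V2 and 9.70, 8.75 and 15.6 in V3. Both zones thus rose, and the lowest library of V2 5 d was replicate 3. In V2 0 d its counts were 0, and the rise in V2 was called (adjusted p = 0.00011), with mean FPKM 44.2 times as high at 5 d. In V3 0 d its normalized counts were 0, 1.92 and 0 and in V3 5 d 351.8, 334.5 and 591.6 (adjusted p = 3.3e-05). The FPKM fit gave rises of 2.59 in V2 (SE 0.46, adjusted p = 0.0013) and 4.48 in V3 (SE 0.46, adjusted p = 2.5e-05). At 5 d the V3 to V2 difference was 1.86 on counts (SE 0.66, adjusted p = 0.053), not called. In the FPKM fit that difference was 1.71 (SE 0.46, adjusted p = 0.0073), called.

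CYP83B1 (Aa_G127450), the next enzyme of the indolic route, had FPKM of 140, 170 and 224 in V3 5 d and 28.6, 48.9 and 38.6 in V3 0 d. In V2 it had 89.7, 51.8 and 71.0 at 0 d and 99.0, 83.8 and 71.7 at 5 d, which overlap. It rose by 2.12 in V3 (SE 0.29, adjusted p = 0.00088). Its V3 to V2 difference of 0.93 at 5 d (SE 0.29, adjusted p = 0.033) ended without V2 5 d replicate 2 or 3 or V3 5 d replicate 2 or 3 (adjusted p = 0.069 to 0.113).

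SOT16 (Aa_G98840), a sulphotransferase of the last step with a preference for indolic substrates in A. thaliana, had FPKM of 16.3, 20.8 and 32.2 in V3 5 d and 3.18 to 5.52 in V2 5 d. It had 0.344 to 1.1 in V3 0 d and 1.24 to 4.57 in V2 0 d. It rose by 4.90 in V3 (SE 0.51, adjusted p = 0.00016) and was 2.19 higher in V3 at 5 d (SE 0.51, adjusted p = 0.0087), and its change over time differed between zones by 3.91 (SE 0.70, adjusted p = 0.0090). SUR1 (Aa_G194680), the carbon-sulphur lyase shared by the indolic and aliphatic routes, was abundant throughout, with FPKM of 70.7, 80.8 and 91.8 in V3 5 d against 41.3 to 54.7 in V2 5 d. SUR1 rose by 1.14 in V3 (SE 0.17, adjusted p = 0.0012), and its difference of -0.23 over time in V2 was not called (SE 0.17, adjusted p = 0.34). At 5 d it was 0.69 higher in V3 (SE 0.17, adjusted p = 0.010). At 0 d it was lower in V3, by a log2 difference of -0.69 (SE 0.17, adjusted p = 0.049), a call that ended without V2 0 d replicate 1 or 3 or V3 0 d replicate 1 or 3 (adjusted p = 0.086 to 0.117).

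MYB34 (Aa_G693340), an activator of indolic glucosinolate genes, had FPKM of 24.6, 31.2 and 35.5 in V3 5 d and 6.58 to 16.7 in the other libraries. It rose by 1.82 in V3 (SE 0.35, adjusted p = 0.0046). The difference of 1.03 from V2 at 5 d (SE 0.35, adjusted p = 0.043) ended in all 6 fits that left out 1 library of V2 5 d or V3 5 d, with adjusted p of 0.051 to 0.132.

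CYP81F2 (Aa_G69090), which hydroxylates the indole ring of finished glucosinolates, was lower in V3 than in V2 at both times. Its FPKM was 7.97, 6.98 and 6.92 in V2 5 d and 1.37, 0.780 and 1.93 in V3 5 d, without overlap. It had 3.48, 2.13 and 2.66 in V2 0 d and 0.327, 1.5 and 0.817 in V3 0 d. CYP81F2 rose by 2.38 in V2 (SE 0.43, adjusted p = 0.013), a call that reached an adjusted p of 0.050 without V2 5 d replicate 1. Left-out zeros kept it from the count test in V3. For V3 against V2 the FPKM fit gave -1.31 at 0 d (SE 0.33, adjusted p = 0.018) and -2.11 at 5 d (SE 0.33, adjusted p = 0.00028). In that fit the difference between zones in the change over time was -0.80 (SE 0.46, adjusted p = 0.20), not called.

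**Figure D3:**
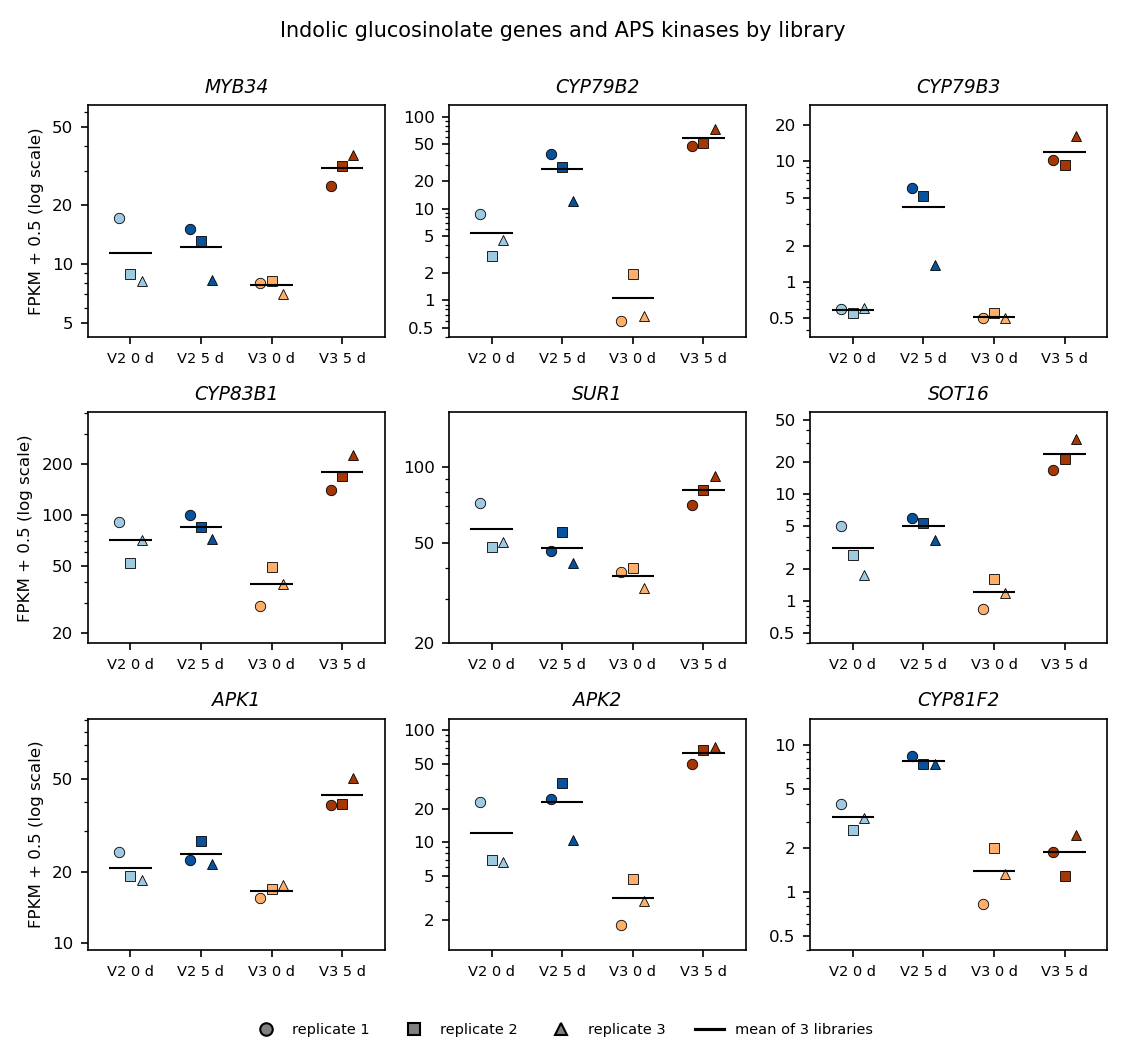
FPKM plus 0.5 on a log axis for 9 genes: the regulator MYB34, enzymes of indolic glucosinolate synthesis and both APS kinases, by group. Each point is a library, its shape the replicate, and the bar the mean of 3 libraries; V3 5 d is the highest group in all panels except CYP81F2, where V2 5 d is highest.

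Aliphatic genes fell into those that followed the groups and those that followed single libraries. FMO GS-OX1 (Aa_G321870), which oxygenates the side chain of aliphatic glucosinolates, was higher in V3 at both times. Its FPKM was 2.95, 3.00 and 2.64 in V2 0 d, 6.52, 5.22 and 8.11 in V3 0 d, 3.31, 3.80 and 2.95 in V2 5 d and 15.4, 14.4 and 16.1 in V3 5 d. The zones did not overlap at either time. The V3 to V2 difference was 1.19 at 0 d (SE 0.19, adjusted p = 0.0071) and 2.21 at 5 d (SE 0.18, adjusted p = 4.5e-05). FMO GS-OX1 was the only member called higher in V3 at 0 d.

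SOT17 (Aa_G119000), a sulphotransferase with a preference for aliphatic substrates, rose by 1.88 in V3 (SE 0.31, adjusted p = 0.0024), from 4.33, 5.91 and 4.26 FPKM to 14.3, 20.2 and 19.8. In V2 it went from 14.1, 6.39 and 7.81 to 13.3, 11.7 and 8.63, which overlap.

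IMD1 (Aa_G72800), an isopropylmalate dehydrogenase of methionine chain elongation, and CYP83A1 (Aa_G79730), the aliphatic counterpart of CYP83B1, were high in single libraries. IMD1 had 11.8 FPKM in V2 0 d replicate 1 and 14.0 in V2 5 d replicate 2, while the other 10 libraries held 0.147 to 3.19. CYP83A1 had 10.5 and 3.78 FPKM in those libraries and 0 to 0.913 in the others. IPMI-SSU2, another chain elongation gene that is no member, had 14.4 and 9.62 FPKM in them and 0 to 1.73 elsewhere. Outside the aliphatic genes, APK2 and SERAT2;1 also had their highest V2 values at each time in these libraries. SERAT2;1 had 4.01 FPKM in V2 0 d replicate 1 against 0.799 and 0.546 in replicates 2 and 3. Group means of IMD1 and CYP83A1 in V2 rest on these libraries, and no comparison that could be tested on counts was called. Left-out zeros kept IMD1 from the count tests between zones at 5 d, over time in V3 and for the difference of changes. The FPKM fit called no comparison of either gene. The authors' deposited table lists IMD1 with a log2 fold change of -22.71 between zones at 0 d and CYP83A1 with -22.33 at 5 d.

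**Figure D4:**
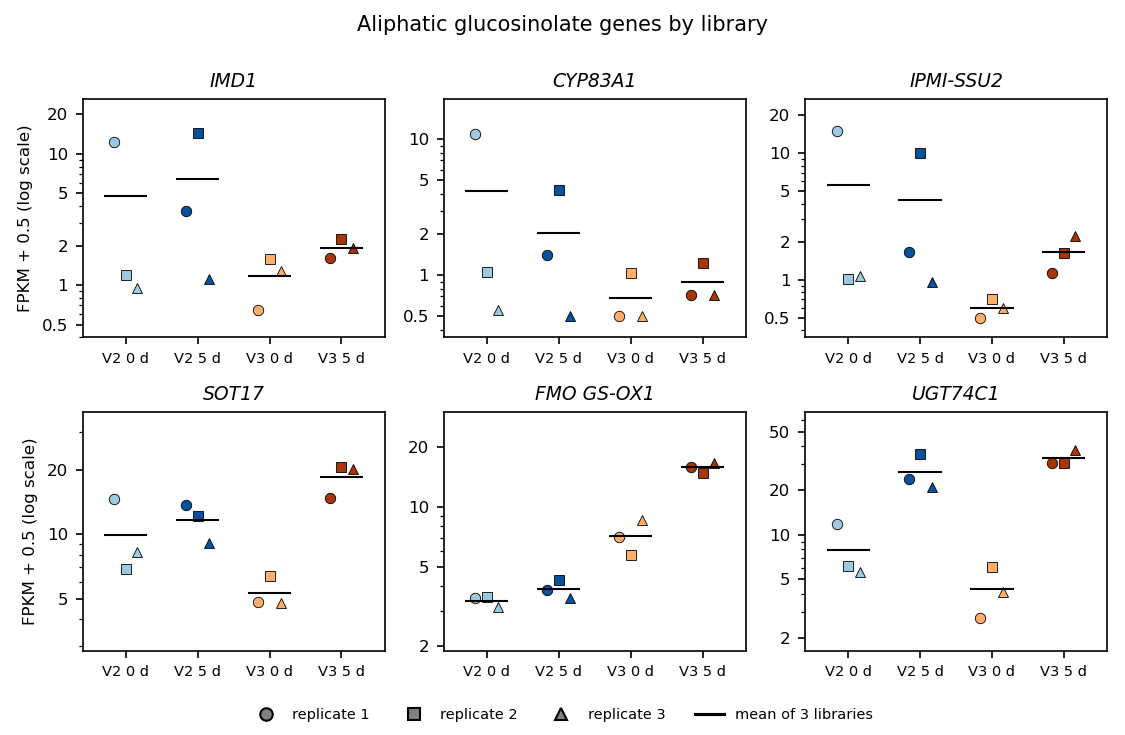
FPKM plus 0.5 on a log axis for 6 genes of the aliphatic list, by group; IPMI-SSU2 and UGT74C1 are not among the 40 genes. Each point is a library, its shape the replicate, and the bar the mean of 3 libraries; in the panels IMD1, CYP83A1 and IPMI-SSU2 the same V2 0 d and V2 5 d libraries stand above all others.

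GTR1 (Aa_G491990) and GTR2 (Aa_G409530), importers that load glucosinolates into cells in A. thaliana, were lower in V3 than in V2 at the end of the cold, and no difference between zones was called at 5 d. GTR1 had FPKM of 13.8, 11.9 and 12.2 in V2 0 d and 4.70, 8.40 and 5.27 in V3 0 d. At 5 d it had 17.7, 21.6 and 16.1 in V2 and 12.8, 17.1 and 12.9 in V3. The zones overlapped at 5 d only. GTR1 differed by -1.33 at 0 d (SE 0.18, adjusted p = 0.0029) and rose by 1.37 in V3 (SE 0.18, adjusted p = 0.00070).

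GTR2 had FPKM of 36.9, 24.1 and 30.3 in V2 0 d, 13.1, 19.2 and 14.1 in V3 0 d, 62.4, 44.9 and 41.5 in V2 5 d and 46.0, 44.7 and 52.7 in V3 5 d. As for GTR1, the zones were apart at 0 d and overlapped at 5 d. GTR2 differed by -1.08 at 0 d (SE 0.20, adjusted p = 0.017) and rose by 1.66 in V3 (SE 0.20, adjusted p = 0.00037). The call at 0 d ended without V2 0 d replicate 1 or 3 or V3 0 d replicate 1 or 3 (adjusted p = 0.052 to 0.066). At 5 d the log2 difference between zones was -0.43 for GTR1 (adjusted p = 0.093) and -0.19 for GTR2 (adjusted p = 0.50). The change over time differed between zones by 0.90 for GTR1 (SE 0.26, adjusted p = 0.064) and by 0.89 for GTR2 (SE 0.27, adjusted p = 0.081), neither called on counts. The FPKM fit called that of GTR2, at 0.92 (adjusted p = 0.037).

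Among breakdown genes, TGG2 (Aa_G113000), a myrosinase, rose in both zones. Its FPKM went from 12.5, 13.5 and 10.2 to 60.3, 63.5 and 26.2 in V2 and from 0.946, 11.1 and 13.1 to 86.5, 90.8 and 66.2 in V3. The times did not overlap in either zone, and V3 0 d replicate 1, the lowest, was listed at 0 counts and left out of the fit. The log2 changes were 2.02 in V2 (SE 0.33, adjusted p = 0.0035) and 2.85 in V3 (SE 0.37, adjusted p = 0.0010). The call in V3 could not be tested without V3 0 d replicate 2 or 3.

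MBP1 (Aa_G364650), a myrosinase-binding protein, had FPKM of 173, 139 and 193 in V3 5 d. It had 15.0, 16.3 and 9.41 in V2 5 d, 0.346, 3.17 and 0.869 in V3 0 d and 3.42, 1.06 and 1.1 in V2 0 d. V3 5 d lay above V2 5 d, and both lay above the groups at 0 d, which overlapped. V3 5 d replicate 3 was listed at 0 counts despite its 193 FPKM and was left out. MBP1 rose by 6.76 in V3 (SE 0.68, adjusted p = 0.00085) and by 3.11 in V2 (SE 0.60, adjusted p = 0.012), and at 5 d it was 3.51 higher in V3 (SE 0.62, adjusted p = 0.0058). With zeros kept as deposited the difference at 5 d turned to -1.04. In the FPKM fit it was 3.61 (SE 0.51, adjusted p = 0.00018). The rise in V3 could not be tested without V3 0 d replicate 2 or 3 or V3 5 d replicate 1 or 2, nor the difference at 5 d without either of the latter, nor the rise in V2 without V2 0 d replicate 1 or 3.

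NIT3 (Aa_G192370), a nitrilase that acts on nitriles such as those of glucosinolate breakdown, was lower in V3. Its FPKM was 22.4, 24.8 and 20.3 in V2 5 d and 8.47, 7.15 and 8.47 in V3 5 d. The difference at 5 d was -1.61 (SE 0.45, adjusted p = 0.021), and it ended without V2 5 d replicate 1 or 2 or V3 5 d replicate 2 or 3 (adjusted p = 0.054 to 0.063). At 0 d it was -1.62 (SE 0.45, adjusted p = 0.069). AT3G07720, annotated with nitrile specifier words, had FPKM of 24.4 to 28.6 at 0 d and 14.4 to 18.3 at 5 d, without overlap. It was called in no comparison on counts, and in the FPKM fit it fell by 0.60 in V2 (SE 0.12, adjusted p = 0.0026) and by 0.63 in V3 (SE 0.12, adjusted p = 0.0012).

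**Figure D5:**
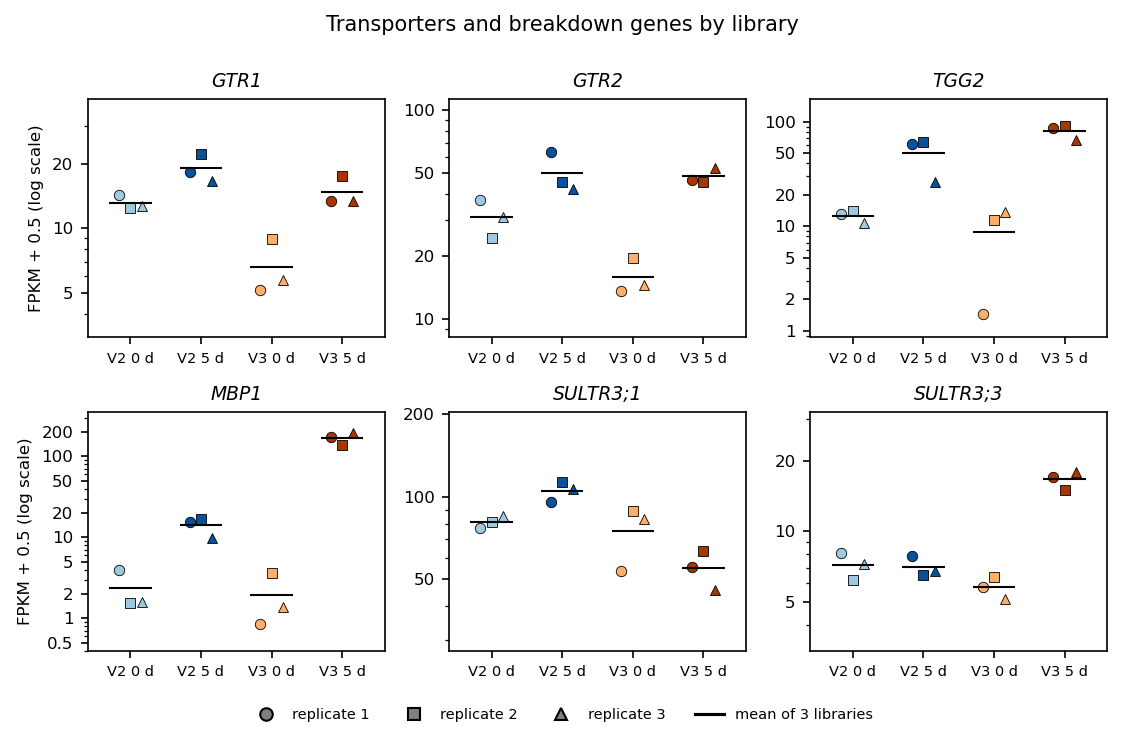
FPKM plus 0.5 on a log axis for the glucosinolate importers GTR1 and GTR2, the breakdown genes TGG2 and MBP1 and the sulphate transporters SULTR3;1 and SULTR3;3, by group. Each point is a library, its shape the replicate, and the bar the mean of 3 libraries; GTR1 and GTR2 are lowest in V3 0 d, and MBP1 and SULTR3;3 are highest in V3 5 d.

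Of the remaining sulphur genes, SBP1, a selenium-binding protein, rose by 0.77 in V2 (SE 0.10, adjusted p = 0.00091) and by 1.34 in V3 (SE 0.10, adjusted p = 2.0e-05), from 33.0 to 62.7 FPKM at 0 d to 93.7 to 116 at 5 d. It was lower in V3 at 0 d by a log2 difference of -0.46 (SE 0.10, adjusted p = 0.039), a call that ended without V2 0 d replicate 1 or 3 or V3 0 d replicate 1 or 3 (adjusted p = 0.064 to 0.107). The sulphurtransferase STR16 fell by 1.15 in V2 (SE 0.27, adjusted p = 0.015), which reached 0.054 without V2 5 d replicate 2. The FPKM fit did not call this fall (-0.46, SE 0.23, adjusted p = 0.11). STR18, another sulphurtransferase, and AT5G16940 were called in no comparison on counts. In the FPKM fit STR18 was lower in V3 at 0 d, at a log2 difference of -1.38 (SE 0.34, adjusted p = 0.018), and its change over time differed between zones by 1.72 (SE 0.49, adjusted p = 0.025). In that fit AT5G16940 rose by 0.77 in V2 (SE 0.20, adjusted p = 0.0082) and by 0.87 in V3 (SE 0.20, adjusted p = 0.0034). The other 5 members match only by a word such as iron-sulphur or sulphated. Listing as changed had chosen them too, so their counts are no test. At 5 d 4 were higher in V3 than in V2, with log2 differences of 0.75 to 1.54, beside 16.2% of all genes tested. PSY1 was lower, at -3.22 (SE 0.83, adjusted p = 0.014), beside 19.9% of all genes. The call of PSY1 ended without V2 5 d replicate 2 or V3 5 d replicate 2 (adjusted p = 0.052). That of FD1 ended without V2 5 d replicate 1 or V3 5 d replicate 2 (adjusted p = 0.056 to 0.069), and that of URM11 without V2 5 d replicate 1 or V3 5 d replicate 1 or 2 (adjusted p = 0.063 to 0.069). In V2, 4 of these 5 fell over time, by log2 changes of -0.70 to -1.40, beside 11.3% of all genes tested. Of these calls, that of PSAT2 ended without any 1 of V2 0 d replicates 1, 2 and 3 and V2 5 d replicates 1 and 2 (adjusted p = 0.056 to 0.108), and that of AT2G47690 without V2 0 d replicate 2 or 3 or V2 5 d replicate 3 (adjusted p = 0.051 to 0.054). FD1, a ferredoxin, was the 1 member called lower over time in V3 on counts, by a log2 change of -1.06 (SE 0.21, adjusted p = 0.0053).

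edgeR, run on recovered reads with every 0 as deposited, ended 24 of the 77 member calls. Among them were GGCT2;1, APK2, CYP79B2, ATPS1, SULTR3;4, TGG2 and MBP1 over time in V3, and CYP81F2, GTR2, TGG2 and MBP1 over time in V2. At 5 d they were GGCT2;1, CYP83B1, MYB34, MBP1, NIT3 and PSY1, and at 0 d SUR1 and SBP1. A fit of the compared groups alone ended all calls at 0 d except that of GTR1.

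Beyond the members, 11 genes of the 9 pathway lists could be paired, all of them listed as changed. GSTU20, a glutathione transferase of the aliphatic route, had FPKM of 1678, 1631 and 1742 in V3 5 d and 437 to 694 elsewhere, and was 1.26 higher in V3 at 5 d (SE 0.12, adjusted p = 0.00013). GGP1, which processes the glutathione conjugate, rose by 2.12 in V3 (SE 0.30, adjusted p = 0.0011) and by 1.00 in V2 (SE 0.30, adjusted p = 0.037). UGT74C1, also of the aliphatic list, rose by 2.14 in V2 (SE 0.40, adjusted p = 0.0069). In V3 it rose by 3.03 (SE 0.46, adjusted p = 0.0021), with the 0 of V3 0 d replicate 1 left out. CYP81F3 rose by 4.39 in V3 (SE 0.38, adjusted p = 5.3e-05) and by 2.74 in V2 (SE 0.38, adjusted p = 0.0011).

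BGLU18, a beta-glucosidase, had the highest FPKM among the breakdown genes, with 8099, 7584 and 8706 in V3 5 d and 2932, 2540 and 2448 in V2 5 d. It rose by 3.55 in V3 (SE 0.48, adjusted p = 0.00074) and by 1.90 in V2 (SE 0.44, adjusted p = 0.013). NIT2 rose by 2.57 in V3 (SE 0.16, adjusted p = 5.5e-06) and 1.59 in V2 (SE 0.16, adjusted p = 0.00015), where NIT3 had 0.36 in each zone (adjusted p = 0.61), not called. PEN3, an exporter, rose by 1.16 in V2 (SE 0.23, adjusted p = 0.0068) and was lower in V3 at 5 d by -1.41 (SE 0.23, adjusted p = 0.0016). MYC2, a jasmonate regulator of glucosinolate genes, was lower in V3 at 5 d by -1.19 (SE 0.36, adjusted p = 0.027), while its relative MYC4 was 0.84 higher (SE 0.25, adjusted p = 0.025).

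Some markers of other cells differed between the same groups. These too could be paired only if listed as changed, so markers without a listed change are not seen. Of 7 vascular markers XCP1, XCP2 and APL were paired, and their summed FPKM was 21.8 to 23.0 in V3 5 d, 5.6 to 11.9 in V2 5 d and 0.638 to 4.43 at 0 d. The sum follows the vessel proteases XCP1 and XCP2, while APL, a phloem regulator, had 1.25 to 2.11 in V3 5 d and 2.09 to 3.63 in V2 5 d. Of 8 guard and myrosin cell markers KAT2 and SCAP1 were paired. KAT2 had FPKM of 4.65, 5.00 and 4.79 in V3 5 d and 0 to 0.155 elsewhere, and SCAP1 3.72 to 4.52 in V3 5 d and 4.18 to 10.1 elsewhere. Of 8 leaf markers CA1 alone was paired, with 1.48 to 4.20 FPKM in V2 5 d, 2.46 to 4.19 in V3 5 d and 0 to 0.307 at 0 d. The bud marker CUC3 was called lower at 5 d than at 0 d in V2 (-0.98, SE 0.26, adjusted p = 0.024) and in V3 (-1.60, SE 0.26, adjusted p = 0.0022). Their part in the changes of the members was not tested.

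Libraries of a group differed in the levels of glucosinolate genes. The 15 genes ranked were the members of glucosinolate synthesis, regulation and transport with APK1 and APK2, and breakdown genes were left out. Among them V2 0 d replicate 1 had the highest FPKM of its group in 13, V3 0 d replicate 2 in 13 and V3 5 d replicate 3 in 11. V2 5 d replicate 3 was the lowest of its group in all 15 and V3 0 d replicate 1 in 11. These are counts over genes that share libraries, and no test was made on them. All genes were not ranked in this way, so the pattern is not shown to be particular to these genes.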

How the data were processed

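PolyA RNA of 12 libraries in 4 groups of 3 was measured. The tools named, per the submitters' processing notes, are DESeq2, HISAT2, TopHat and StringTie. Not given in the sources used here were versions, settings, roles and genome build. The authors deposited a table of normalized counts (unit signal), which are gene counts divided by 1 factor per library: 100% of values lay within 0.05 of a whole read. In V2 replicate 2 at both times that factor is close to 1, so recovery there rests on the smallest value. The authors deposited FPKM for 3877 listed genes. The authors deposited log2 fold changes with an absolute value above 1, with adjusted p-values. The tables hold 0 columns of values that belong to no sample. Homologues were paired for 2896 of 3884 listed genes, and genes that were not listed were not paired.

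From these, limma 3.58.1 (R 4.3.3) with a trend in the prior variance was applied to log2 values of the normalized counts with 1 added, all 12 libraries in a single fit with group means. Genes entered if their mean was 10 or more and every group in the contrast kept at least 2 libraries. Benjamini-Hochberg adjustment ran over all such genes, and calls needed a value under 0.05. The interaction subtracts the V2 change over time from the V3 change. A deposited 0 was treated as missing if its FPKM was at least 1 or implied at least 20 counts, or, without FPKM, if a partner library held at least 20. The fit was tested on simulated data. Alternatives used edgeR 4.0.16, DESeq2 1.42.0, other pseudocounts and zero rules, TMM factors, the compared groups alone, a replicate block and leaving out each library. The limma p-values weigh each difference against the spread between libraries within groups, pooled over the groups and moderated by the trend. A group with all usable counts at 0, as for SDI1, adds no spread to that pool. Intervals were not computed, and depth limits low genes.

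The members, gene lists and zero rule were chosen with earlier results of these data known. Every member with a pathway role is named; members matched by another word are given by number and range, and list genes that are no members by the smallest adjusted p-values.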

Additional observations from a re-analysis of the deposited data

Results flagged for a closer look

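The change over time differed between V3 and V2, by a test of the difference itself, in 11 members. For SDI1 the fitted difference in log2 change was 11.10, which depends on the pseudocount because the gene was at 0 in every usable library of 3 groups, and on FPKM it was 8.73. For LSU2 it was 6.33, for SDI2 4.18 and for APR3 3.67, and these calls remained in all 12 fits without 1 library. The sulphotransferase SOT16 differed by 3.91, the transporter SULTR3;3 by 1.68, the APS kinase APK1 by 1.48 and the lyase SUR1 by 1.38, also in all 12.

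GGCT2;1 differed by 8.93 on counts and 4.71 on FPKM, a call that remained in 1 of 12 such fits. It ended without V2 0 d replicate 1, V2 5 d replicate 1 or any replicate of V3 5 d (adjusted p = 0.051 to 0.105). In the remaining fits it could not be tested. FMO GS-OX1 differed by 1.02, remaining in 1 of 12. MBP1 differed by 3.64, remaining in 2 of 12. Its call ended without any 1 replicate of V2 5 d or V3 5 d replicate 3 (adjusted p = 0.062 to 0.092), and the remaining fits could not test it.
The call of SDI1 remained in 10 of 12 such fits and could not be tested without V2 0 d replicate 1 or 2. It remained in neither edgeR nor DESeq2, which took its zeros as deposited. edgeR and DESeq2 also ended those of GGCT2;1 and MBP1, and edgeR that of FMO GS-OX1.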

How the results depend on the processing

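Of 77 member calls in the 5 comparisons, 77 remained with a pseudocount of 5 and with TMM factors, 75 with no filter on low values, 63 with zeros as deposited, 65 with zeros missing by the FPKM rule only, 53 in edgeR, 69 in DESeq2, and 61 of 66 with the compared groups only. On FPKM 76 remained, in a fit chosen after seeing the data. That fit adjusted over genes listed as changed only, so its 76 is not comparable with the other counts.

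At 0 d, where 5 members were called between zones, the count was 2 with zeros missing by the FPKM rule only, 3 in edgeR, 14 in DESeq2, 1 with the compared groups only, 3 with a replicate block and 17 on FPKM, where 33.8% of listed genes were called. For the difference between zones in the change over time, where 11 were called, it was 7 by the FPKM rule only, 7 in edgeR, 19 in DESeq2 and 25 on FPKM, where 31.2% of listed genes were called. The other counts with all libraries stayed within 1.5 times. Leaving out 1 library gave 2 to 11 calls at 0 d, 15 to 18 between zones at 5 d, 11 to 15 over time in V2, 19 to 26 over time in V3 and 8 to 15 for the difference of changes, and 50 of the 77 calls remained in every such fit. The highest count at 0 d, 11, came without V3 0 d replicate 2. With zeros as deposited, MBP1 turned to -1.04 at 5 d and to -0.95 for the difference of changes, where its 3 left-out values, V3 5 d replicate 3 among them, enter at 0. TMM factors moved library medians by at most 0.06 (log2).

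With the replicate number as a block, 70 of the 77 calls remained, and 3 members were called at 0 d. Deviations of the 18 same-number pairs correlated at -0.13 to 0.10 over 9998 genes, so the numbers were not taken to pair the samples. Low genes limit precision, since 10 members held zeros that had to be left out and SULTR4;2 and SULTR3;2 had no count test.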
